A study of Mus musculus with 12 samples.

Results

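The cytosolic ribosomal protein genes were followed in RNA of CD14+/CD64+ cardiac macrophages (Mφ) sorted by flow cytometry. A gene was a member when its symbol was that of a ribosomal protein of the small (40S) or large (60S) cytosolic subunit, names marked as pseudogenes and S6 kinases left out, and when its counts summed to at least 1000 over the 12 libraries. The rule found 86 symbols, of which 80 of the 24445 genes counted were members, 33 of the 40S and 47 of the 60S subunit. They comprised 75 canonical genes and 5 paralogs (Rpl7l1, Rpl22l1, Rpl36al, Rps27l and Rps4l). Counts chose the members only through this minimum, and the group comparisons were not part of the rule. Just inside it were Rps27 (2182 counts), Rpl34 (3158) and Rps4l (33682), and just outside it Rpl3l (948), Rpl30 (859) and Rpl39l (470), followed by Rpl32l (295) and by Rpl26 and Rpl10l, which were listed at 0 in all libraries. All 80 members were tested among 14608 genes.

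The 12 libraries came from male C57BL6/J mice, aged 11 to 13 weeks where the study describes this model, with 4 mice in each group and 1 library per mouse. Control (Ct) mice carried a saline pump, for a time the labels do not give. Early concentric hypertrophy (ECH) and heart failure (HF) mice carried an isoproterenol pump, which stimulates β-adrenergic receptors. The dose was 30 mg/kg/day, for 14 days in ECH and 28 days in HF, so that these groups differ in time at the same dose. The comparisons asked how far Mφ of hypertrophic and of failing hearts differ from control Mφ and from each other. The models rest on a drug infusion in wild-type mice, with no transgene, and the sort kept CD11b+ live cells that were positive for CD14 and CD64. In RNA of sorted bulk cells, fewer cells of a type and less RNA per cell cannot be told apart.

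Each ribosome holds a copy of nearly every ribosomal protein, so cells make these proteins in nearly equal numbers, from mRNAs that are short, abundant and long-lived. Most of the mRNAs begin with a C followed by a run of pyrimidines, the terminal oligopyrimidine (TOP) tract, through which mTOR signalling, acting in part through LARP1, sets how much of them is translated. In macrophages, growth factors and microbial signals act on the same route, and several ribosomal proteins have roles outside the ribosome.

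Start windows are shown because the shared start is the sequence feature these genes are known by. Promoter sequences of RefSeq (GRCm38.p6) were matched by symbol for 60 of the 80 members, giving 71 windows of 300 bases that run from 250 bases before to 50 bases after an annotated transcription start. Below are the 15 bases on either side of the annotated start for members named in the results, 5′ to 3′ on the gene's strand. Capitals mark the unbroken run of C and T that begins at the annotated start, which in Rpl27a goes on for 1 base past the window, to 16. The first 6 were chosen for a run of at least 5, and the last 4 are paralogs without such a run. Other named members without such a run are not shown. A run of at least 5 was found in 16 of 71 member windows, and the median run was 0. The windows shown are therefore no sample of the members.
Rps27 (chr3:90213634-90213663, reverse strand): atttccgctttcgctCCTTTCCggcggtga
Rps6 (chr4:86857353-86857382, reverse strand): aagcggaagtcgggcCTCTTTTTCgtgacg
Rpl38 (chr11:114668565-114668594, forward strand): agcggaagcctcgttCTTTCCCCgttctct
Rps15a (chr7:118116133-118116162, reverse strand): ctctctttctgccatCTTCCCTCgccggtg
Rplp2 (chr7:141447636-141447665, forward strand): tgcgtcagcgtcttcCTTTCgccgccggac
Rpl27a (chr7:109519180-109519209, forward strand): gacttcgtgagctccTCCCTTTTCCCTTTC
Rps27l (chr9:66946071-66946100, forward strand): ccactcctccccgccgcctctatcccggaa
Rpl22l1 (chr3:28805493-28805522, forward strand): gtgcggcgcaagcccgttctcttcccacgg
Rpl36al (chr12:69184053-69184082, reverse strand): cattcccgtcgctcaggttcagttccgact
Rpl7l1 (chr17:46782642-46782671, reverse strand): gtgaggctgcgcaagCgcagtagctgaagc

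Rps27 and Rps27l form a paralog pair of which the former has a run of 7 pyrimidines and the latter has none at either of its 2 annotated starts, the first of which is shown. A C at the annotated start with at least 4 further pyrimidines was found in 13 of 71 member windows (18.3%), against 2.47% of 32780 windows of other genes. The letters CTTTCC within 10 bases of the start occurred in 11.3% against 0.815%. In Rps27 and Rpl38 they lie wholly inside the marked run, so this share is not independent of the run. Over the whole window and on either strand, CCGGAAG, the core letters of ETS-family sites, occurred in 35.2% of member windows against 8.80%, and AAGATGG in 16.9% against 6.31%. TATAAA occurred in 9.86% against 13.6%. Annotated starts can lie some bases from the starts used in these cells, so a window without a run says only that the letters are not at the annotated base.

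Totals ranged from 88466559 counts (Ct 2, the library of Ct mouse 2) to 111180291, and summed levels of 8 macrophage markers from 21913 to 32133 CPM (counts scaled to library size with edgeR's TMM factors). Hba-a1, Hba-a2, Hbb-bs and Hbb-bt, the defining red cell genes, were at 0 in all libraries. Ct 2 and HF 1 had 127 and 188 genes without a count although each of their group mates held at least 100, against at most 7 in the other libraries, and no member was among these genes. Library numbers in the labels allow sets of libraries to be inferred, with ECH mice 1 and 2 beside all Ct libraries and ECH mice 3 and 4 beside all HF libraries.

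Ribosomal protein genes took between 1.18% and 1.53% of all counts in 11 libraries and 2.79% in Ct 2. The share was 1.53, 2.79, 1.36 and 1.24% in Ct mice 1 to 4, 1.18, 1.25, 1.30 and 1.33% in ECH, and 1.38, 1.19, 1.29 and 1.27% in HF. The mean was 1.73% ± 0.713 in Ct, 1.26% ± 0.0636 in ECH and 1.29% ± 0.0789 in HF (SD, n = 4), and 1.38% ± 0.145 in Ct without Ct 2 (n = 3). Without Ct 2 the ranges of Ct, ECH and HF overlapped. The 60S members took 1.40 to 1.46 times the counts of the 40S members in 11 libraries and 1.28 times in Ct 2, so in that library the small subunit genes stood out further.

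**Figure D1:**
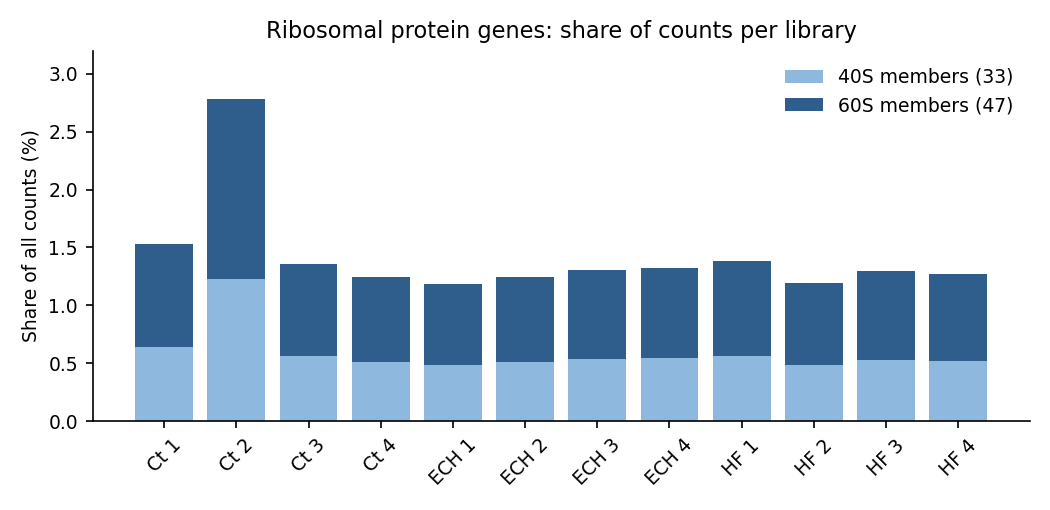
Share of all counts (%, y axis) held by the 33 genes of the 40S subunit (light) and the 47 genes of the 60S subunit (dark) in each of the 12 libraries (x axis). Ct 2 stands at 2.79%, and the other 11 libraries lie between 1.18% and 1.53%.

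Levels are compared between genes per kilobase of transcript (GENCODE M21). The median member had 189 CPM per kilobase as the mean of 12 libraries, 65 of 80 members had at least 100, and the range ran from 4.12 to 949. Highest was Rps29, a zinc-binding protein of the small subunit (chr12:69157722-69159186, reverse strand), at 949 ± 446 CPM per kilobase (SD, n = 12). Next came Rpl13, a large subunit protein and the reference gene of the study's qPCR (chr8:123102350-123105244, forward strand), at 609 ± 186, and Rpl37a, another zinc-binding protein of the large subunit, at 576 ± 271. Without Ct 2 the levels were 825 ± 117, 556 ± 37.5 and 499.8 ± 63.5 CPM per kilobase (n = 11), so that Rps29 lay above the other 2, while Rpl13 and Rpl37a did not differ beyond their spread.

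The 3 lowest members were Rps15a (16.0 ± 9.54 CPM per kilobase), Rps27 (5.12 ± 1.58) and Rpl34 (4.12 ± 1.38). Rps15a, a small subunit protein, has an annotated transcript of 5179 bases with a coding part of 390, and per kilobase of coding length it ranked 62 of 79 members. Rps27 and Rpl34 stayed the lowest of the 79 by coding length, and on that scale Rpl41, whose coding part has 75 bases, was the highest and Rps29 the next. Rps27 and Rpl34 encode parts of every ribosome, as do Rpl26 and Rpl30, which were at 0 and at 37 to 124 counts. Values of these 4 genes are therefore uncertain as measures of their mRNA. Near-identical copies exist for many members, with 278 pseudogenes named after 59 of the 80 in GENCODE, and no source used here says how reads that map to several places were counted. The copies Rps27rt and Rpl34-ps1 were listed at 0.

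The 80 genes stood out in 1 library. Ct 2 was the highest of the 12 libraries for 77 of 80 members, against 23.2% of all genes tested, and it exceeded every other Ct library for 78 (34.1% of all genes). In Ct 2 the median member stood at 2.02 times the mean of the other 3 Ct libraries, while the median gene tested stood at 0.967-fold. At least 2-fold were 44 members (13.3% of all genes), and the fold ran from 0.870 for Rpl7l1 to 3.36 for Rplp1. By Dixon's criterion for groups of 4, Ct 2 stood apart above the other Ct libraries for 21 members (4.89% of all genes). The median was 2.16-fold for 40S and 1.99-fold for 60S members, 2.07-fold for the 75 canonical genes and 1.30-fold for the 5 paralogs.

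**Figure D2:**
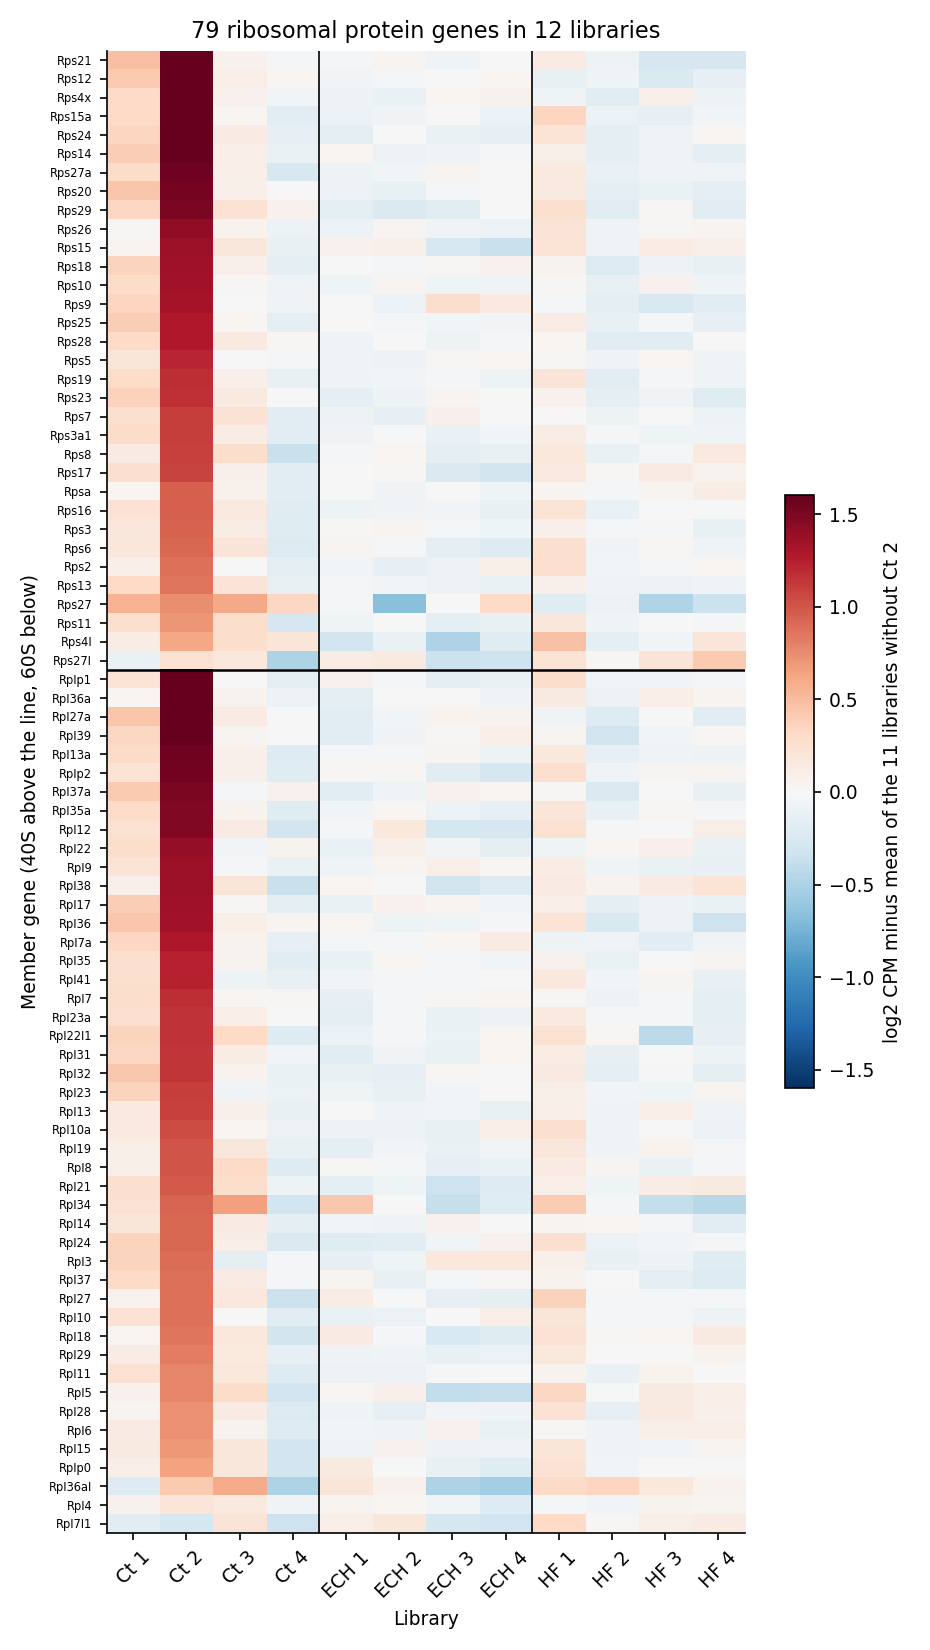
Heat map of 79 members (y axis, 40S above the line and 60S below, ordered within each subunit by Ct 2) in the 12 libraries (x axis). Colour gives log2 CPM minus the gene's mean over the 11 libraries without Ct 2, and the Ct 2 column is the darkest red for most genes of both subunits.

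The stalk genes show how unequal this was. Rplp0, Rplp1 and Rplp2 encode the lateral stalk of the large subunit, which recruits elongation factors. Rplp1 (chr9:61913284-61914542, reverse strand) had 184, 543, 159 and 142 CPM in Ct mice 1 to 4, 165, 156, 141 and 146 CPM in ECH and 191, 153, 154 and 154 CPM in HF. Ct 2 lay far above every other library, and the other 11 overlapped between groups. Rplp2 had 126, 317, 115 and 95.0 CPM in Ct mice 1 to 4, 109.5, 109.7, 97.0 and 89.9 CPM in ECH and 131, 105, 111 and 112 CPM in HF. Rplp0 had 444, 648, 468 and 337 CPM in Ct mice 1 to 4, 458, 411, 381 and 361 CPM in ECH and 487, 402, 411 and 415 CPM in HF. Ct 2 was again the highest of all for Rplp2 and Rplp0, and the fold over the other Ct libraries was 3.36 for Rplp1, 2.83 for Rplp2 and 1.56 for Rplp0.

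Rpl13 had 483, 926, 457 and 399 CPM in Ct mice 1 to 4, 435, 418, 418 and 400.1 CPM in ECH and 466, 412, 465 and 418 CPM in HF. The Ct 2 value was 2.08-fold the mean of the other Ct libraries, and the remaining 11 libraries lay between 399 and 483 CPM with a coefficient of variation of 6.75%. Rps4x, the X-linked form of a small subunit protein, had 214, 609, 181 and 168 CPM in Ct mice 1 to 4, and Rps15a had 85.0, 237, 69.8 and 60.6 CPM. Both were over 3-fold higher in Ct 2 than in the other Ct libraries, at 3.24-fold and 3.31-fold. At the other end were Rpl7l1, Rpl4 at 1.10-fold and Rps27 at 1.18-fold.

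Some other values of Ct 2 moved with the members. Among genes that are no members, the median fold of Ct 2 over the other Ct libraries was 1.48 for 645 genes with transcripts up to 750 bases, 1.23 for 1992 genes of 750 to 1500 bases, 0.949 for 4906 genes of 1500 to 3000 bases and 0.864 for 6498 longer genes. Members of the same length classes stood at 2.23 (31 genes), 2.03 (37 genes), 1.81 (10 genes) and 2.93 (2 genes), above the other genes in each class. Summed markers of B cells (7 of 8 counted, none at 0 in Ct 2) were 518 CPM in Ct 2, 119.7 to 271 in Ct 1, Ct 3 and Ct 4, and 39.7 to 91.4 over both isoproterenol groups. Markers of T and NK cells (7 of 8, none at 0) were 89.2 CPM in Ct 2, 16.1 to 50.6 in the other Ct libraries and 3.45 to 29.6 in ECH and HF. Neutrophil markers (8 of 8, none at 0) were 1710 CPM in Ct 2, 411 to 1254 in Ct 1, Ct 3 and Ct 4, and 158 to 1355 over both isoproterenol groups. Ct 2 was also the highest for summed cardiomyocyte markers (215 against at most 172 CPM) and dendritic cell markers (241 against at most 218, 1 of 8 at 0). Among the Ct libraries, all cardiomyocyte markers but Pln were highest in Ct 2, and Pln was lowest there (14.1 CPM). Of the dendritic cell markers, Ccr7 (164 CPM), Cd209a and Xcr1 were highest in Ct 2, while Zbtb46 (2.48 CPM), Siglech (9.69 CPM) and Clec9a were lowest. Summed markers of fibroblasts (35.2 CPM), endothelial cells (53.3 CPM) and dividing cells (262 CPM) in Ct 2 lay within the range of the other Ct libraries. The macrophage sum in Ct 2 (22285 CPM) was the lowest of the Ct libraries. The part of all these values in the members' level was not tested.

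In the other 11 libraries the median coefficient of variation of the members was 10.9% (5.55 to 28.7%), against 26.8% for all genes tested, and 78 of 80 lay below that median. Among genes with a mean of 50 to 500 CPM in these libraries, the median was 10.5% for 73 members and 15.9% for 3506 other genes, and 70 of the 73 lay below the latter. Ct 1 was the highest of the 11 for 50 members (11.1% of all genes), HF 1 for 19 (16.6%), Ct 3 for 8 (8.41%) and HF 4 for 3 (8.15%). Within HF, HF 1 was the highest for 64 members (30.4% of all genes), and within Ct, Ct 4 was the lowest for 75 (20.6%). Farthest from the pattern of the median member over the 12 libraries were Rpl7l1, Rps27, Rpl36al and Rps27l, by the SD of the difference in log2 CPM (0.44, 0.38, 0.37 and 0.35), all of them genes with a small or no excess in Ct 2. Without Ct 2 the SD was 0.37 for Rps27, 0.33 for Rpl36al and 0.25 for Rps27l, while Rpl7l1 fell to 0.20, below Rpl34 at 0.29.

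For ECH against Ct, no member passed the study's thresholds of a false discovery rate (FDR) under 0.05 and a 2-fold change in edgeR's quasi-likelihood test, nor FDR under 0.05 alone, where 0.356% of all genes passed the former and 0.472% the latter. DESeq2 gave 1 member at FDR under 0.05 (3.88% of all genes) and limma-voom with sample weights gave none (0.945% of all genes). Unadjusted p was under 0.05 for 41 members, all lower in ECH, where 5.89% of all genes were lower and 6.03% higher at this p. Without Ct 2 this count was 4 (among them Rpl21, Rps29 and Rps4l, 4.19% of all genes). It was 39 without Ct 1 (5.58%), 56 without Ct 3 (7.02%) and 72 without Ct 4 (6.43%). Leaving out 1 ECH library gave 14, 19, 15 and 16 (4.86%, 5.21%, 3.61% and 4.39% of all genes, for ECH 1 to 4), and leaving out 1 HF library gave 26, 24, 27 and 25 (6.36%, 5.27%, 5.51% and 5.4%, for HF 1 to 4). The median log2 fold change was −0.49 for the members, −0.53 for 40S and −0.47 for 60S, and 0.01 for all genes. Without Ct 2 it was −0.14, with 78 of 80 members below 0 (47.8% of all genes).

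**Figure D3:**
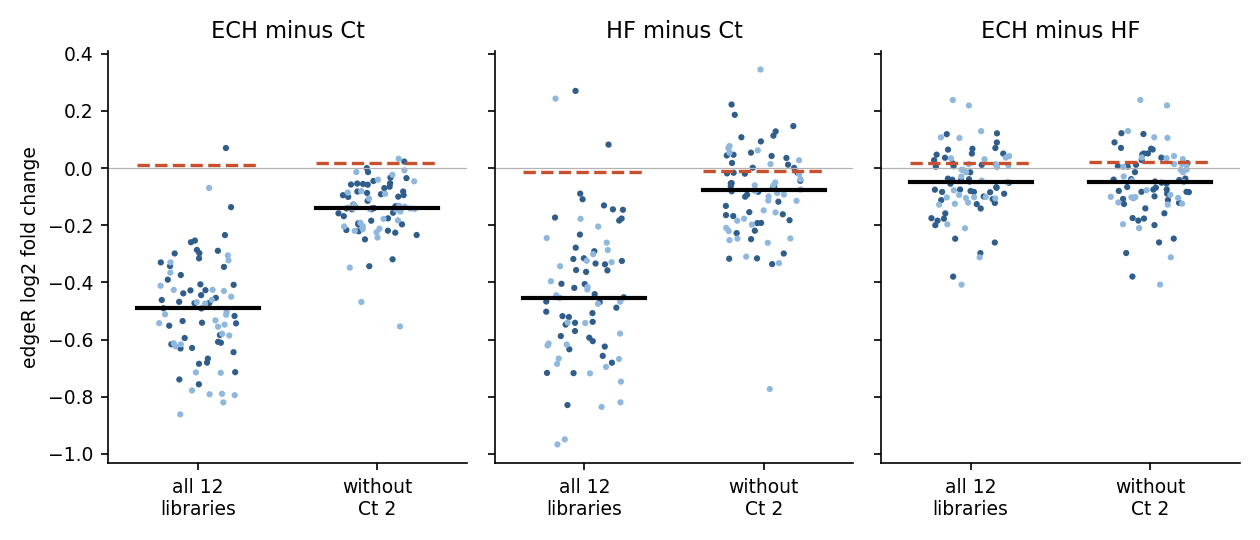
Log2 fold change from edgeR (y axis) of each member (light 40S, dark 60S) for the 3 comparisons, from all 12 libraries and without Ct 2 (x axis). Black bars are medians of the members (−0.49 and −0.14 for ECH minus Ct, −0.45 and −0.08 for HF minus Ct, −0.05 in both for ECH minus HF), and dashed bars are medians of all genes tested.

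All 4 ECH values lay below all 4 Ct values for 7 of the 80 members (among them Rps27, Rps4l, Rps29, Rpl36, Rps28 and Rpl23a) and above them for none, against 3.64% and 4.33% of all genes. Leaving out Ct 2 could not change these 7, since it was the lowest Ct library for no member, while 5.61% of all genes lay lower without it. Rps4l, a paralog of Rps4x that GENCODE annotates as a transcribed processed pseudogene although its name does not mark it as one (chr6:148354656-148355598, forward strand), had 27.9, 39.4, 31.3 and 29.3 CPM in Ct mice 1 to 4, 20.9, 23.8, 18.2 and 22.3 CPM in ECH and 35.6, 23.3, 24.9 and 29.3 CPM in HF. Ct and ECH did not overlap, and HF spanned both. The log2 fold change was −0.59 ± 0.18 (SE, edgeR FDR 0.202), −0.47 ± 0.17 without Ct 2 (edgeR FDR 0.334), and DESeq2 gave FDR 0.0349, with 0.0349 to 0.947 over all alternatives.

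Rps29 had 400.1, 905, 374 and 334 CPM in Ct mice 1 to 4, 288, 271, 284 and 317 CPM in ECH and 381, 285, 323 and 279.9 CPM in HF. Every ECH value was below every Ct value, by a small gap to Ct 4. The log2 fold change was −0.79 ± 0.26 (edgeR FDR 0.246), and −0.35 ± 0.13 without Ct 2 (edgeR FDR 0.345). Rpl36, of the large subunit, had 173, 324, 135 and 131 CPM in Ct and 130.5, 120.4, 121 and 126 CPM in ECH. The highest ECH value and the lowest Ct value nearly touched, and the log2 fold change was −0.62 ± 0.25 (edgeR FDR 0.339) or −0.23 ± 0.14 without Ct 2 (edgeR FDR 0.644). Rpl21, of the large subunit and with the second lowest p of the comparison, had 192, 316, 195 and 151 CPM in Ct mice 1 to 4, 146, 154, 127 and 139 CPM in ECH and 173, 154, 174 and 177 CPM in HF. One ECH value exceeded Ct 4, so the groups overlapped, and the log2 fold change was −0.59 ± 0.19 (edgeR FDR 0.21) or −0.34 ± 0.12 without Ct 2 (edgeR FDR 0.315).

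For HF against Ct, no member passed the thresholds in edgeR (0.377% of all genes did), nor FDR under 0.05 alone in edgeR (0.513% of all genes) or limma-voom (2.1%), and 1 did so in DESeq2 (5.91%). Unadjusted p was under 0.05 for 29 members, all lower in HF, where 8.72% of all genes were lower and 7.35% higher, and for 5 without Ct 2 (among them Rpl27a, Rps12, Rps23 and Rps28, 7.71%). It was 29 without Ct 1 (7.57%), 43 without Ct 3 (10.2%) and 60 without Ct 4 (8.12%). Leaving out 1 ECH library gave 22 each time (8.17%, 8.28%, 8.15% and 8.27% of all genes, for ECH 1 to 4), and leaving out 1 HF library gave 22, 11, 13 and 12 (7.74%, 7.86%, 7.1% and 7.71%, for HF 1 to 4). The median log2 fold change was −0.45 (40S −0.47, 60S −0.42, all genes −0.01), and −0.08 without Ct 2. With a trend on transcript length and GC content removed from each library, the count was 48 with all libraries (7.67% of all genes) and 26 without Ct 2 (5.94%), with medians of −0.40 and −0.20 and again no member at FDR under 0.05. All Ct libraries belong to 1 inferred set and all HF libraries to the other, so that set and group cannot be told apart within these libraries. A fit with the set as a term, which takes the set difference from the ECH mice alone, gave 0 members lower (6.67% of all genes) and 2 higher (8.41%) at unadjusted p under 0.05 with a median of −0.45. Without Ct 2 that fit gave 3 lower (8.37%) and 5 higher (11.1%) with a median of −0.07.

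Rps27, Rps12 and Rpl27a had all HF values below all Ct values (4.45% of all genes), and none was above (4.59% of all genes). Leaving out Ct 2 could not change this list, since it was the lowest Ct library for no member, while 7.58% of all genes lay lower without it. Rps27 (chr3:90212522-90213651, reverse strand) had 2.38, 2.7, 2.46 and 2.04 CPM in Ct mice 1 to 4, 1.59, 1.02, 1.62 and 2.01 CPM in ECH and 1.42, 1.51, 1.15 and 1.28 CPM in HF. Ct lay above both other groups, though ECH 4 came close to Ct 4. The log2 fold change was −0.84 ± 0.46 for HF (edgeR FDR 0.398), −0.77 ± 0.44 without Ct 2 (edgeR FDR 0.416), and −0.62 ± 0.46 for ECH (edgeR FDR 0.647), while DESeq2 gave FDR 0.0447 for HF, with 0.0447 to 0.627 over all alternatives.

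Rps12, a small subunit protein (chr10:23785183-23787275, reverse strand), had 83.9, 225, 67.6 and 64.2 CPM in Ct mice 1 to 4, 60.9, 61.6, 63.0 and 64.3 CPM in ECH and 57.9, 59.5, 53.6 and 57.3 CPM in HF. HF lay below both other groups, and ECH lay below Ct apart from ECH 4, which met Ct 4. The log2 fold change of HF against Ct was −0.95 ± 0.32 (edgeR FDR 0.191), −0.33 ± 0.11 without Ct 2 (edgeR FDR 0.2), where DESeq2 gave FDR 0.0474 (5.65% of all genes passed 0.05 there), and the FDR ran from 0.0474 to 0.448 over all alternatives. Rpl27a, of the large subunit (chr7:109519147-109522367, forward strand), had 134, 307, 108 and 98.0 CPM in Ct mice 1 to 4, 87.5, 95.6, 102 and 102 CPM in ECH and 94.5, 85.1, 98.0 and 86.9 CPM in HF. HF 3 nearly met Ct 4, and ECH overlapped both groups. The log2 fold change of HF was −0.83 ± 0.29 (edgeR FDR 0.203) or −0.32 ± 0.12 without Ct 2 (edgeR FDR 0.251).

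**Figure D4:**
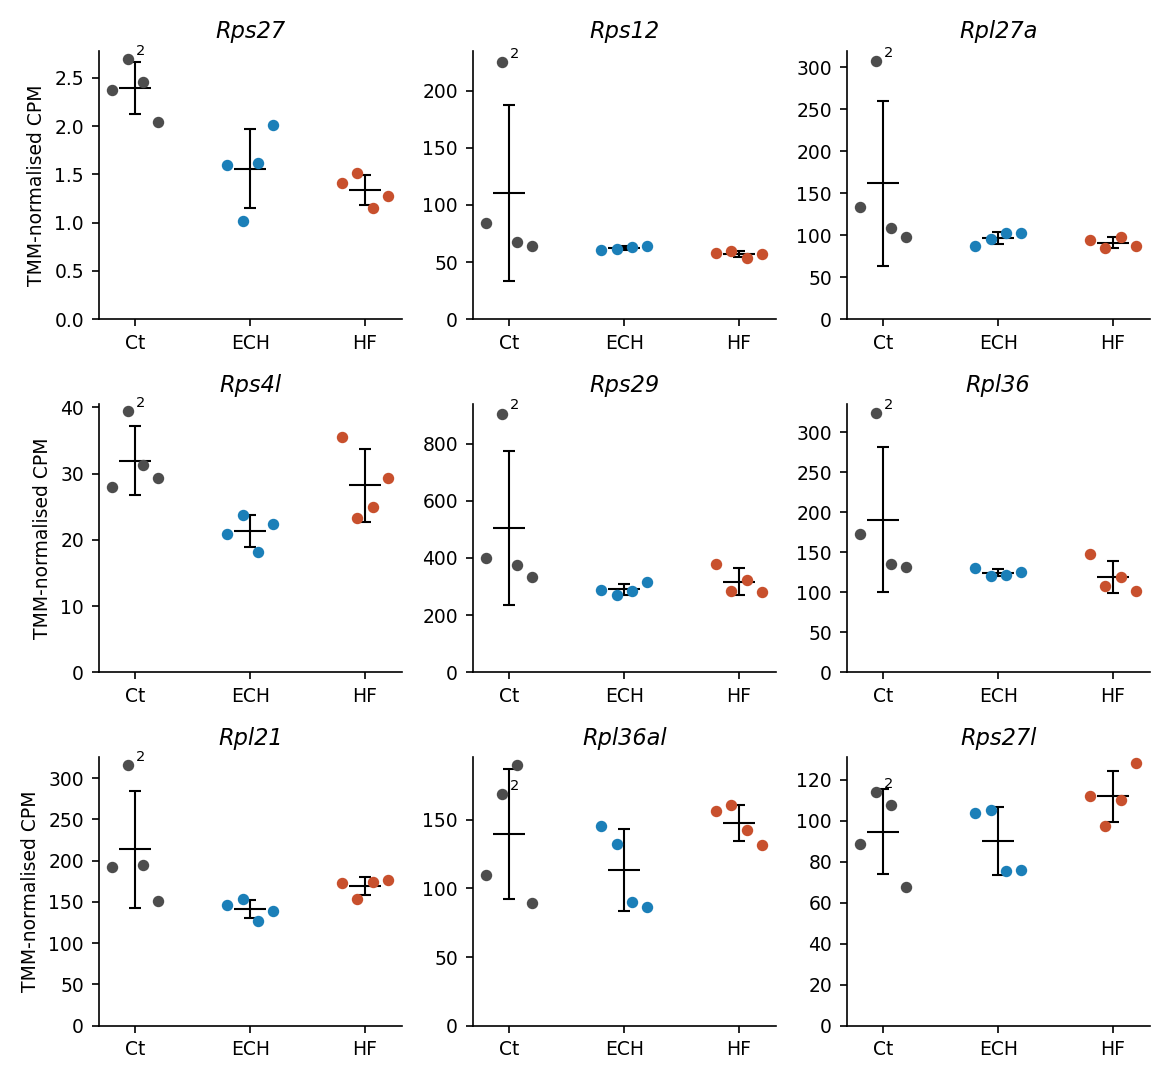
TMM-normalised CPM (y axis from 0) of 9 members in Ct, ECH and HF (x axis). Points are libraries, bars are means with SD (n = 4), and a digit 2 marks Ct 2, which is the highest Ct library for 8 of the 9 genes, the exception being Rpl36al.

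For ECH against HF, which share dose and differ in time, no gene and no member passed the thresholds (0% of all genes, edgeR). The study, using edgeR's GLM at the same fold change and FDR, reports genes that differed in ECH Mφ from both Ct and HF Mφ. The quasi-likelihood fit used here thus passed fewer genes, and the cause of this difference was not tested. FDR was under 0.05 for no member in edgeR (0%), limma-voom (0%) or DESeq2 (0.639% of all genes), and unadjusted p was under 0.05 for 1 member, Rps4l, which was lower in ECH (2.81% of all genes were lower and 5.17% higher), and for Rps4l and Rpl21 without Ct 2 (4.58% lower). The median log2 fold change was −0.05, against 0.02 for all genes, with 52 of 80 members below 0 (48% of all genes). With the length and GC trend removed its sign turned, to 0.08, with 62 of 80 members above 0 (48.1% of all genes) and 1 higher at unadjusted p under 0.05 (4% of all genes). Without Ct 2 that fit gave a median of 0.07, with 60 of 80 above 0 (47.7%), and 6 members higher at this p (5.5%) and none lower. The fit takes 1 spread per gene from all groups, so Ct 2 enters the errors of this comparison too. Rps12 and Rpl7a lay wholly above HF in ECH (3.56% of all genes) and Rpl21, Rpl29 and Rpl38 wholly below it (3.36%). Rpl7a, of the large subunit, had 101, 101, 106 and 113 CPM in ECH and 97.8, 99.4, 91.0 and 99.2 CPM in HF, and its log2 fold change was 0.12 ± 0.24 (edgeR FDR 0.967), or 0.12 ± 0.11 without Ct 2 (edgeR FDR 0.724). For Rpl21 the log2 fold change was −0.26 ± 0.18 (edgeR FDR 0.783), or −0.26 ± 0.11 without Ct 2 (edgeR FDR 0.388). Rpl38, a large subunit protein known for its part in translating Hox mRNAs (chr11:114668524-114672331, forward strand), had 97.4, 96.3, 78.2 and 82.8 CPM in ECH and 105, 99.7, 105 and 111 CPM in HF. ECH mice 1 and 2 lay just under HF and mice 3 and 4 further below, and the log2 fold change was −0.25 ± 0.28 (edgeR FDR 0.912), or −0.25 ± 0.13 without Ct 2 (edgeR FDR 0.478). Rpl29, of the large subunit, had 97.4, 98.0, 94.8 and 96.3 CPM in ECH and 115, 102, 102 and 107 CPM in HF. The ECH libraries were tightly grouped under the HF libraries, with a log2 fold change of −0.14 ± 0.17 (edgeR FDR 0.915), or −0.14 ± 0.09 without Ct 2 (edgeR FDR 0.593). With the length and GC trend removed it was 0.00. Rps4l gave −0.41 ± 0.18 (edgeR FDR 0.604), or −0.41 ± 0.16 without Ct 2 (edgeR FDR 0.364), with HF 2 inside the ECH range.

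Restricted to 1 inferred set, the comparison of ECH 1 and 2 with Ct gave a median log2 fold change of −0.52, or −0.14 without Ct 2, and no member at FDR under 0.05 in edgeR (0.00674% of all genes). Unadjusted p was under 0.05 and the value lower for 0 members (2.64% of all genes), or 2 without Ct 2 (4.38%). ECH mice 3 and 4 against HF gave a median of −0.05 and 3 members at FDR under 0.05 (6.47% of all genes), all lower (3.64%), while 11 were lower at unadjusted p under 0.05 (11.7%). They were Rpl36al (log2 fold change −0.75 ± 0.12, edgeR FDR 0.0150), Rpl5 (−0.53 ± 0.12, edgeR FDR 0.0451) and Rps27l (−0.57 ± 0.13, edgeR FDR 0.0479), and over all alternatives their FDR ran up to 1. Between the pairs of ECH mice themselves, mice 3 and 4 lay below mice 1 and 2 for 26 members (26.6% of all genes) and above them for 23 (27.8%). The sample titles of ECH mice 3 and 4 share a code prefix, while those of mice 1 and 2 each carry another. The labels do not say what this prefix means.

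Paralogs differed from their partners in how far Ct 2 stood out. Rpl36al and Rpl36a encode nearly identical large subunit proteins. Rpl36al (chr12:69182731-69184083, reverse strand) had 109.8, 169, 190.2 and 89.6 CPM in Ct mice 1 to 4, 145, 133, 89.9 and 86.7 CPM in ECH and 156, 161, 142 and 132 CPM in HF. Ct 4, ECH 3 and ECH 4 formed the low end and Ct 3 the high end, and the groups overlapped, with a log2 fold change of ECH against HF of −0.38 ± 0.24 (edgeR FDR 0.737), or −0.38 ± 0.23 without Ct 2 (edgeR FDR 0.552). Rpl36a (chrX:134585654-134588062, forward strand) had 46.4, 151, 47.4 and 42.7 CPM in Ct mice 1 to 4, 40.7, 45.5, 45.3 and 43.5 CPM in ECH and 50.3, 42.7, 48.7 and 47.0 CPM in HF. Only Ct 2 stood apart, and the coefficient of variation of Rpl36a over the other 11 libraries was 6.34%, against 25.6% for Rpl36al. Rpl36al counts were 112% of Rpl36a counts in Ct 2 and 198 to 402% in the other libraries.

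Rps27l, a paralog of Rps27 known as a p53 target (chr9:66946086-66949516, forward strand), had 88.7, 114, 108 and 67.9 CPM in Ct mice 1 to 4, 104, 105, 75.4 and 75.9 CPM in ECH and 112, 97.5, 110.2 and 128 CPM in HF. ECH 1 and 2 lay with HF and ECH 3 and 4 lay below it, and ECH against HF gave −0.31 ± 0.18 (edgeR FDR 0.706), or −0.31 ± 0.17 without Ct 2 (edgeR FDR 0.489). Rpl7l1, which is known for a part in assembling the large subunit (chr17:46773907-46782672, reverse strand), had 98.1, 90.7, 127 and 87.6 CPM in Ct mice 1 to 4, 118, 125, 91.6 and 88.9 CPM in ECH and 138, 111, 117 and 120.4 CPM in HF. It was the only member that was lower in Ct 2 than in the mean of the other Ct libraries, and its counts were 16.0% of those of Rpl7 in Ct 2 and 32.4 to 54.3% elsewhere. Rpl7 itself, of the large subunit, had 303, 566, 254 and 253 CPM in Ct, and the other libraries ranged from 226 to 256 CPM.

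Rpl22l1, which can stand in for Rpl22, was at 57.9% of Rpl22 counts in both Ct 2 and Ct 4 and at 48.6 to 88.9% over the 11 libraries, so here Ct 2 did not stand apart. Rpl22, an RNA-binding protein known for its role in T cell development, had 52.2, 114, 41.4 and 44.4 CPM in Ct, and Rpl22l1 had 37.8, 66.0, 36.9 and 25.7 CPM. Both were highest in Ct 2. Rps4l was at 6.48% of Rps4x counts in Ct 2 and at 10.3 to 21.6% elsewhere. Of the pairs with a partner below the count minimum, Rpl3 had 429, 621, 303 and 327 CPM in Ct, Rpl10 421, 657, 359.8 and 316 CPM and Rpl39, which lines the exit tunnel, 94.4, 226, 77.4 and 74.3 CPM. Their partners Rpl3l, which is known from muscle, Rpl10l and Rpl39l stayed at 0 to 123, 0 and 0 to 104 counts per library.

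The 6 members named for roles outside the ribosome were also highest in Ct 2. Rpl5 and Rpl11 form with 5S rRNA a particle that holds back Mdm2. Rpl5 (chr5:107900502-107909005, forward strand) had 147, 239, 171 and 113 CPM in Ct mice 1 to 4, 142, 148, 106 and 108 CPM in ECH and 176, 140.4, 154 and 150.2 CPM in HF. Ct 4, ECH 3 and ECH 4 were low and Ct 2 high, with a log2 fold change of ECH against Ct of −0.41 ± 0.20 (edgeR FDR 0.459), or −0.18 ± 0.17 without Ct 2 (edgeR FDR 0.809). Rpl11 had 133, 193, 126 and 97.5 CPM in Ct mice 1 to 4, 105, 105, 110.0 and 112 CPM in ECH and 117, 104, 117 and 112 CPM in HF. Ct 1, Ct 2 and Ct 3 were the 3 highest libraries, and ECH against Ct gave −0.34 ± 0.17 (edgeR FDR 0.451), or −0.13 ± 0.12 without Ct 2 (edgeR FDR 0.799).

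Rps6, the substrate of the S6 kinases downstream of mTOR (chr4:86854660-86857412, reverse strand), had 259.7, 435, 264 and 197 CPM in Ct mice 1 to 4, 236, 227, 207 and 199 CPM in ECH and 273, 221, 233 and 220.4 CPM in HF, and its Ct mean was 289 ± 102 CPM (SD, n = 4), or 240.4 ± 37.7 without Ct 2 (n = 3). The groups overlapped. Rpl13a, a part of the complex that silences inflammatory mRNAs in interferon-treated monocytes, averaged 163 ± 102, 105 ± 3.66 and 105 ± 10.2 CPM in Ct, ECH and HF (SD, n = 4), and 113 ± 19.6 in Ct without Ct 2. Rps3, which also takes part in NF-κB signalling, averaged 305 ± 112, 242 ± 8.3 and 240.1 ± 13.7 CPM, and 250.3 ± 33.2 in Ct without Ct 2. Rps19, known from Diamond-Blackfan anaemia, averaged 365 ± 165, 257 ± 5.07 and 266 ± 30.4 CPM, and 284 ± 40.5 in Ct without Ct 2. None of the 4 passed FDR under 0.05 in edgeR in any comparison. For each of the 4 the Ct mean without Ct 2 was closer to the ECH and HF means, and the SD of Ct was smaller.

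Genes of the same pathway that are no members differed by list. Of the other ribosomal subunit genes, Fau, which encodes a ribosomal protein fused to a ubiquitin-like protein, and Rack1 (listed as Gnb2l1), a scaffold of the small subunit, were highest in Ct 2, at 2.71 and 2.13 times the other Ct libraries. Of 20 elongation factors and other mRNAs with a TOP start, 19 exceeded every other Ct library in Ct 2, with a median of 1.70-fold. Among them Pabpc1, the poly(A)-binding protein, had 144, 379.9, 111 and 141 CPM in Ct, and Tpt1 had 491, 1039, 449 and 354 CPM. Eef1a1, which brings tRNAs to the ribosome, had 1391, 1891, 1129 and 1120.4 CPM, Eef2 441, 540.1, 371 and 451 CPM and Npm1 170.2, 267, 130.4 and 128 CPM. Ct 2 was the highest Ct library for each of these 5 genes.

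The remaining lists showed less or no excess. They were not matched for transcript length, with which the fold in Ct 2 varied among genes that are no members (0.864 for those over 3000 bases). The median fold in Ct 2 was 0.992 for 26 initiation factors (10 above every other Ct library, beside 34.1% of all genes), 0.870 for 45 ribosome assembly genes (11), 0.778 for 22 genes that control ribosomal protein synthesis (6) and 1.24 for 77 mitochondrial ribosomal proteins (45), a separate ribosome encoded by other genes. Mtor had 16.8, 6.86, 19.8 and 18.1 CPM in Ct and Larp1 127, 82.3, 146 and 113 CPM, both lowest of the Ct libraries in Ct 2. Eif4ebp1 had 89.1, 141, 121 and 94.1 CPM, Myc 57.3, 60.4, 47.8 and 64.8 CPM, Ncl 256, 319.8, 252 and 246 CPM and Fbl 39.2, 57.9, 62.9 and 37.9 CPM. Of the Ct libraries, Ct 2 was the highest for Eif4ebp1 and Ncl and not for Myc and Fbl.

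**Figure D5:**
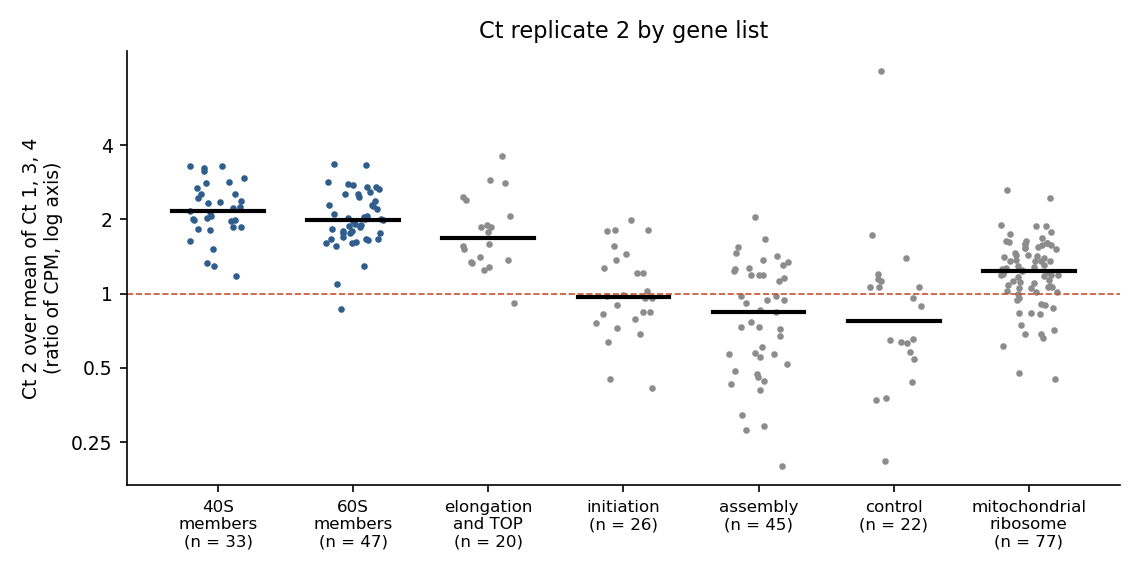
Ratio of Ct 2 to the mean of the other 3 Ct libraries (y axis, log scale) for each gene of the member subunits (blue) and of 5 other lists (grey), with bars at medians. The members lie above 1 except Rpl7l1, the elongation and TOP list has a median of 1.70 with 19 of 20 genes of that list above every other Ct library, and the other lists spread around 1.

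No gene of these lists passed the thresholds in any comparison in the edgeR fit of all 12 libraries by group. At unadjusted p under 0.05, 6.03% of all genes were higher and 5.89% lower in ECH against Ct, and 7.35% higher and 8.72% lower in HF against Ct. ECH against Ct gave 2 of 20 elongation and TOP genes lower and HF against Ct gave 4, or 0 and 2 without Ct 2. Of the other subunit genes 2 of 3 were lower in ECH and 1 in HF, and none without Ct 2. Initiation factors gave 2 higher and 2 lower in ECH and 3 higher and 1 lower in HF, assembly genes 1 higher in each, and control genes none in ECH and 1 higher and 3 lower in HF. For ECH against HF (5.17% of all genes higher and 2.81% lower), 1 elongation or TOP gene and 2 control genes were higher, 1 assembly gene was lower, and 1 mitochondrial ribosomal protein was higher and 3 were lower. Of the mitochondrial ribosomal proteins 13 of 77 were higher and 0 lower in HF against Ct at this p (7.35% and 8.72% of all genes), and 18 were higher without Ct 2 (8.24%). Their median log2 fold change was 0.19, or 0.31 without Ct 2, beside −0.45 and −0.08 for the cytosolic members, and the difference between the lists was not tested. DESeq2 gave 2 of the 77 at FDR under 0.05 in HF against Ct, where 5.91% of all genes passed, both higher, Mrpl50 (0.68 ± 0.19, DESeq2 FDR 0.0101, edgeR FDR 0.128) and Mrps7 (0.46 ± 0.14, DESeq2 FDR 0.0272, edgeR FDR 0.169). With DESeq2 1 control gene passed both thresholds in HF against Ct (2.88% of all genes) and another in ECH against HF (0.422%). Max, the partner of Myc, had 35.6, 24.8, 28.1 and 13.7 CPM in Ct and 7.27 to 14.7 CPM in HF (−1.33 ± 0.36, DESeq2 FDR 0.0097, edgeR FDR 0.123). Ddit4, an inhibitor of mTOR signalling, had 2.68, 16.5, 1.56 and 1.91 CPM in Ct mice 1 to 4, 7.47, 1.79, 32.2 and 23.1 CPM in ECH and 3.89, 1.11, 1.46 and 1.65 CPM in HF, with a log2 fold change of ECH against HF of 2.98 ± 0.83 (DESeq2 FDR 0.0476, edgeR FDR 0.535). Its level was high in Ct 2 and in ECH 3 and 4, and the groups overlapped.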

How the data were processed

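RNA of CD14+/CD64+ cardiac Mφ from 12 mice was amplified with the SMART-Seq v4 kit and sequenced paired-end on a NextSeq 500. Per the study's methods, the authors checked reads with FastQC, trimmed them with Trimmomatic (reads under 40 bp discarded), aligned them to mm10 with TopHat2 and deposited raw counts per gene symbol from featureCounts, 1 table per library, without pooling. No source used here gives versions, annotation, strand setting or the treatment of reads that map to several places.

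Groups came from the treatment labels. Counts were tested with edgeR 4.0.16 in R 4.3.3 (TMM scaling, filterByExpr, quasi-likelihood fit of all 12 libraries with the group as the only term, 2-sided tests, Benjamini-Hochberg adjustment over the 14608 genes tested), and a call needed an FDR under 0.05 and a 2-fold change. Errors of fold changes are SE. The script recovered known changes when tested on simulated data. Those data held changes of at least 2-fold and no outlying library, so smaller shifts and a library such as Ct 2 were not examined. CPM are TMM-scaled, and the fold of Ct 2 is the ratio of its CPM to the mean CPM of Ct 1, 3 and 4. Lengths, positions and GC content came from GENCODE M21 (GRCm38, the assembly of mm10) and promoter windows from RefSeq (GRCm38.p6). Figures were drawn with matplotlib 3.10.9 in Python 3.11.15.

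Genes named with values were the 3 of lowest p in each comparison, the 3 highest and 3 lowest per kilobase, the 4 that depart most from the median member, paralogs with their partners, Rpl13, the stalk genes, 6 genes with roles outside the ribosome, and up to 4 per comparison whose groups did not overlap, with fixed genes from the other lists. A few genes are included in counts and not reported here by name. Genes given as the ends of a range or as a short count, and those with FDR under 0.05 under an alternative, were added after their values were seen, as was the class of 50 to 500 CPM. Members, gene lists and rules were chosen with earlier results of these data known. Alternatives were DESeq2 1.42.0, limma-voom 3.58.1 with sample weights, other scalings and filters, fits of 2 groups alone, a block by replicate number, a term for the inferred set or fits within a set, a loess trend on length and GC content removed, and each library left out. Fits that leave out Ct 2 together with another change were chosen after seeing the data. Libraries held 88466559 to 111180291 counts, so that counting error was small beside the spread between mice for nearly all members, and reads without molecular identifiers are not independent molecules.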

Additional observations from a re-analysis of the deposited data

Results flagged for a closer look

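In groups of 4, 1 library lay so far from its 3 group mates that the gap relative to the range of the group exceeded Dixon's 95% critical value for the following named members, which chance would give in about 1 in 20 groups. Ct 2 stood above the other Ct libraries for Rpl13 (926 CPM), Rps29 (905 CPM), Rps4x (609 CPM), Rpl7 (566 CPM), Rplp1 (543 CPM), Rplp2 (317 CPM), Rps15a (237 CPM), Rpl39 (226 CPM), Rps12 (225 CPM), Rpl36a (151 CPM) and Rpl22 (114 CPM). HF 1 stood above the other HF libraries for Rplp0 (487 CPM), Rpl10 (410.5 CPM), Rplp1 (191 CPM) and Rps15a (87.0 CPM). Over all 80 members Ct 2 stood this far above its group for 21, where 4.89% of all genes tested did, and HF 1 for 6, where 2.48% did.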

How the results depend on the processing

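No member was called at FDR under 0.05 and a 2-fold change under any alternative run. Members at FDR under 0.05 alone numbered 1 for ECH against Ct with DESeq2 (3.88% of all genes), 1 for HF against Ct with DESeq2 (5.91%) and 1 in the same fit without Ct 2 (5.65%), and 3 for ECH against HF in libraries of the same inferred set (6.47%). Members lower at unadjusted p under 0.05, each with the share of all genes in the same fit, were 41 for ECH against Ct (5.89%). They numbered 23 with the length and GC trend removed (6.2%), 6 with the set as a term (3.66%), 15 with only the groups compared (5.7%), 0 within the inferred set (2.64%) and 11 with limma-voom (6.31%). Without Ct 2 that count was 6 with the trend removed (4.19%), 5 also without HF 1 (5.56%), 3 with the set as a term (3.46%), 2 within the set (4.38%) and 7 with DESeq2 (4.65%). Leaving out 1 library at a time gave 4 (without Ct 2, 4.19%) to 72 (without Ct 4, 6.43%) for ECH against Ct, 5 (7.71%) to 60 (8.12%) for HF against Ct (the same 2 libraries) and 0 to 2 for ECH against HF (1.04% to 4.58% over all 12 fits). For HF against Ct (29, 8.72%) it was 48 with the trend removed (7.67%), 0 with the set as a term (6.67%), 11 with only the groups compared (6.67%) and 17 with limma-voom (10.3%), and, without Ct 2, 10 also without HF 1 (7.74%), 3 with the set as a term (8.37%) and 7 with DESeq2 (7.54%). For ECH against HF (1, 2.81%) it was 0 with the trend removed (3.14%), 4 with the set as a term (8.51%), 3 with only the groups compared (5.19%) and 11 within the set (11.7%), and, without Ct 2, 0 with the trend removed (5.13%), 0 also without HF 1 (3.42%), 11 with the set as a term (11.5%) and 2 with DESeq2 (5.27%). With the trend removed the members at this p were instead higher in ECH than in HF, 1 with all libraries (4% of all genes) and 6 without Ct 2 (5.5%). The cause of these differences was not tested.

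Replicate numbers did not pair the mice, since same-numbered libraries of different groups correlated between −0.070 and 0.069 over 12 pairs. With the replicate block the count of members lower at unadjusted p under 0.05 was 13 for ECH against Ct (4.62% of all genes), 11 for HF against Ct (7.13%) and 0 for ECH against HF (2.68%), and 3 (4.06%), 3 (6.62%) and 1 (4.09%) in the block without Ct 2. No member had FDR under 0.05 in the block.

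The median log2 fold change of the members for ECH against Ct ranged from −0.63 to −0.14 on leaving out 1 library, the upper end without Ct 2. With all libraries it was −0.27 with the trend removed and −0.20 with limma-voom, and further settings without Ct 2 gave −0.12 with the trend removed, −0.15 also without HF 1, −0.11 with the replicate block, −0.13 with the set as a term, −0.14 within the set and −0.15 with DESeq2. For HF against Ct the range was −0.60 to −0.079, limma-voom with all libraries gave −0.19, and the settings without Ct 2 gave −0.13 also without HF 1, −0.063 with the replicate block, −0.069 with the set as a term and −0.083 with DESeq2. The difference turned for Rpl13 in ECH against HF with the trend removed (0.063, and 0.057 without Ct 2) and in HF against Ct without Ct 2 and with the set as a term (0.040), and for Rpl29 in ECH against HF with the trend removed (0.0027).

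Of the 193 genes of the other translation lists, those called (0 in the edgeR fit of all 12 libraries by group), each with the share of all genes called in the same fit, were, for ECH against Ct, 1 with DESeq2 without Ct 2 (1.5%). For HF against Ct they were 1 with the set as a term (1.42%), 3 with that term without Ct 2 (2.8%), and 1 with DESeq2 with (2.88%) and without Ct 2 (2.25%). For ECH against HF they were 3 with the set as a term (1.86%), 4 with that term without Ct 2 (2.7%), 5 within the set (2.49%) and 1 with DESeq2 (0.422%). The share of counts in Ct 2 was 2.15 times the median of the other 11 libraries, or 2.26 times without the 20 most abundant other genes of each library. A denominator without mitochondrially encoded genes gave no value, since none is listed, and HF against Ct has no fit within a set.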
